A study of Homo sapiens with 4 samples.

Results

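The regenerating (REG) family is a group of small secreted proteins built around a C-type lectin fold, and 5 of its genes have probes on the array used here: REG1A, REG1B, REG3A, REG3G and REG4. The members were taken by name, as every probe other than a control that the array design assigns to 1 of these genes. This gave 5 of the 34809 genes on the array, read by 6 of 42405 probes in 10 of 58717 spots, and all 5 genes were among the 25148 that passed the filter on dim signals. The family was chosen by the knockdown-minus-mock differences of these same arrays, in which REG3A, REG3G and REG1A stood among the most strongly lowered genes, so that their falls are described here and were not tested.

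RNA came from Hep3B, a human hepatocellular carcinoma cell line, selected with puromycin after transfection with a pLKO.1 plasmid that expresses a short hairpin RNA. The control cells carried the mock hairpin shR-MOCK (1 array), and the knockdown cells carried shR-467, shR-554 or shR-749, which target the UNC50 mRNA at 467, 554 and 749 bp (1 array each). UNC50 encodes a membrane protein of the Golgi apparatus that takes part in trafficking of cell surface receptors. The 3 hairpins were treated as replicates of UNC50 knockdown, the spread between control cultures is unknown with 1 mock array, and all 4 arrays lay on 1 slide read in 1 scan.

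REG proteins are best known from the exocrine pancreas and the gut. REG1A and REG1B are secreted by pancreatic acinar cells, where REG1A is also called lithostathine, and REG1A is additionally described as a growth factor for regenerating islet, gastric and liver cells. REG3A (also named HIP/PAP, after its discovery in hepatocellular carcinoma and pancreatitis) and REG3G are lectins that bind bacterial cell walls and are made by intestinal epithelium under cytokines that signal through STAT3, while REG4 is made by enteroendocrine and goblet cells and lies on another chromosome.

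The members other than REG4 form a cluster on chromosome 2p12. On hg19, the build of the array annotation, the REG3G probe A_32_P65628 lies at chr2:79255336-79255395 on the plus strand. The REG1B probe A_23_P389500 follows at chr2:79312175-79312234 on the minus strand, 56.8 kb further on. The REG1A probe A_23_P90743 lies at chr2:79350451-79350510 on the plus strand (95.1 kb), and the REG3A probe A_23_P119936 at chr2:79384308-79384367 on the minus strand (129 kb). The pseudogene REG1P, which RefSeq names REG1CP, sits between REG1A and REG3A. REG4 is read by the probes A_23_P400310, at chr1:120337140-120337199, and A_24_P58673, at chr1:120351407-120351466, both on the minus strand. The exon or UTR under each probe was not analysed here, as no gene models on hg19 were used.

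The probes are printed here because paralogous genes can be told apart only where their sequences differ. The whole 60-base probe of REG3G holds no stop codon in 1 of its 3 reading frames:
REG3G probe: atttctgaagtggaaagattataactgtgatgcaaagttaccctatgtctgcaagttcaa
In the best alignment without gaps, it was identical to the REG3A probe at 18 of 41 bases (43.9%), with a longest shared run of 8. Probes of more distant members gave like values, such as 46.2% for REG1A with the REG4 probe A_23_P400310. Probes were compared with each other and not with transcripts, so these values do not tell whether the REG3G probe takes up REG3A transcript. The REG1A and REG1B probes were identical at 41 of 57 aligned bases (71.9%), with no shared run longer than 7 bases. Their first 30 aligned bases differ at 8 positions, which are in capitals:
REG1A probe: agtttgcCtTgTtAatcttcaAtaGTttTa
REG1B probe: agtttgcAtCgCtGatcttcaGtaCCttCa
Whether a probe also takes up the transcript of a paralogue was not tested, and the values below are those of the probes.

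The sequences just before the gene starts are shown to compare the members within the REG3 pair and within the REG1 pair. Whether these sequences bear on the signals described below was not tested. They are the 120 bases upstream of each start in RefSeq on GRCh38.p14, with the longest run shared within each pair in capitals. REG3A lies at chr2:79159754-79159873 on the minus strand, REG3G at chr2:79025582-79025701 on the plus strand, REG1A at chr2:79120368-79120487 on the plus strand and REG1B at chr2:79087994-79088113 on the minus strand.
REG3A: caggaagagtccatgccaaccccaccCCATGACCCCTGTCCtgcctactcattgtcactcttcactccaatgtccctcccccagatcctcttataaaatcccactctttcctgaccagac
REG3G: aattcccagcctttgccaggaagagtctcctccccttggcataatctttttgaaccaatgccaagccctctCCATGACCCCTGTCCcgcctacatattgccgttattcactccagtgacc
REG1A: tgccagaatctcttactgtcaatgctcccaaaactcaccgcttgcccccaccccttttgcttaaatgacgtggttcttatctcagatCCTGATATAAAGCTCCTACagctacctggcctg
REG1B: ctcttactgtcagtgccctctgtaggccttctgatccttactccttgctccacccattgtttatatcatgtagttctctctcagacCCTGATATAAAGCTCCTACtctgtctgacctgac
The REG1 pair shared 19 bases, which include the TATA box, and the REG3 pair shared 15. Over windows of 300 bases (250 before and 50 after the start), global alignment gave 67.2% identity for REG1A with REG1B, 57.3% for REG3A with REG3G and between 42.0% and 52.1% for the other pairs of the 5 members. All 5 windows held the letters TATAAA, against 11.5% of 35116 promoter windows searched on both strands. The match began 28 bases before the start in REG1A, 29 in REG1B and in REG3A, 31 in REG4 and 16 bases after it in REG3G, whose RefSeq start therefore lies further upstream relative to the TATA box. The letters of a STAT site, TTCNNNGAA, were found in 1 of the 5 windows, 223 bases before the REG3G start, against 7.66% of all windows. The TCF and LEF letters CTTTG followed by 2 bases of A or T were found in none of the 5, against 13.8% of all windows. These matches describe letters only, and a window without a match says nothing of sites elsewhere.

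The targeted gene was checked first. UNC50 had signals of 5010 with shR-MOCK, 1050 in shR-467 cells, 853 in shR-554 cells and 947 in shR-749 cells, so that it was lower with each hairpin, by 2.45 ± 0.40 on the log2 scale (SD, n = 3). The signal is the scanner's processed brightness of a spot after background subtraction. The differences are those of log2 signals scaled to the 75th percentile of each array, which was between 978 and 1390. The software marked 67.6% to 73.6% of spots as well above background, the dimmest of them at signals of 21.2 to 28.3 (the limit, in what follows), and no spot was saturated.

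REG3A is the antimicrobial lectin first found in hepatoma tissue. Its probe read 63100 with shR-MOCK, 2450 in shR-467 cells, 26350 in shR-554 cells and 3395 in shR-749 cells, each the average of 2 spots. Every knockdown array lay below the mock array, but shR-554 stood far apart from the others. In RNA from whole cultures, fewer cells making a transcript and less of it per cell cannot be told apart. After scaling, REG3A was 22.5-fold lower with shR-467, 2.97-fold lower with shR-554 and 18.8-fold lower with shR-749. The mean log2 difference was -3.43 ± 1.61 (SD, n = 3), and the spots of the probe on 1 array differed by an SD of at most 0.027 on the same scale. The gap between hairpins was thus far wider than that between spots, while the spread between cultures of 1 hairpin is unknown. The lowest REG3A signal was still 96.1 times the limit of its array.

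REG3G, the closest relative of REG3A at the other end of the cluster, read 1160 with shR-MOCK, 89.5 in shR-467 cells, 388 in shR-554 cells and 61.6 in shR-749 cells in its single spot. The order of the arrays was again mock, shR-554 and then the other hairpins. REG3G was 11.3-fold lower with shR-467, 3.71-fold lower with shR-554 and 19.0-fold lower with shR-749, with a mean log2 difference of -3.21 ± 1.20 (SD, n = 3). With shR-749 it was only 2.46 times the limit, so that the low values of REG3G were closer to it than those of REG3A. With no second spot, the error of the REG3G probe within an array is not known.

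REG1A, the pancreatic stone protein, read 32700 with shR-MOCK, 5674 in shR-467 cells, 6498 in shR-554 cells and 2765 in shR-749 cells over 2 spots. All knockdown arrays lay below the mock array, and here shR-749 was the lowest and the others were close to each other. The scaled signal was 5.03-fold lower with shR-467, 6.25-fold lower with shR-554 and 11.9-fold lower with shR-749. The mean log2 difference was -2.85 ± 0.65 (SD, n = 3), the spots of 1 array had an SD of at most 0.050, and the lowest signal was 110.6 times the limit.

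REG1B, the neighbour and nearest relative of REG1A, showed no such fall, but its probe was too dim to tell whether the transcript changed. Its 2 spots averaged 39.9 with shR-MOCK, 36.2 in shR-467 cells, 39.9 in shR-554 cells and 38.5 in shR-749 cells. These signals passed the software's mark on every array, but were only 1.41 to 1.88 times the limit. The log2 differences were 0.06 in shR-467 cells, -0.31 in shR-554 cells and -0.06 in shR-749 cells, with a mean of -0.11 ± 0.19 (SD, n = 3), and none reached 1.5-fold. Spots of the REG1B probe differed by an SD of 0.084 to 0.30. If the signal is REG1B transcript, a fall of the size seen for REG1A would have taken it below the limit. Whether it is transcript or a constant dim signal was not tested.

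REG4 was at the limit of detection. The spots of A_23_P400310 read 20.6 and 37.6 with shR-MOCK, 13.2 and 47.5 with shR-467, 8.42 and 31.0 with shR-554, and 20.8 and 25.2 with shR-749. Of these, 1 of 2 spots passed the background mark on the shR-MOCK array and on the shR-467 array, and neither spot did on the rest. The second REG4 probe, A_24_P58673, read 16.4, 16.9, 5.73 and 5.01 in the same order of arrays and passed the mark nowhere. REG4 passed the filter only through the mock array, where 1 of 2 spots sufficed. No fold change is given for it, as the spots of the shR-467 array differed by more than the averages of the arrays did.

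**Figure D1:**
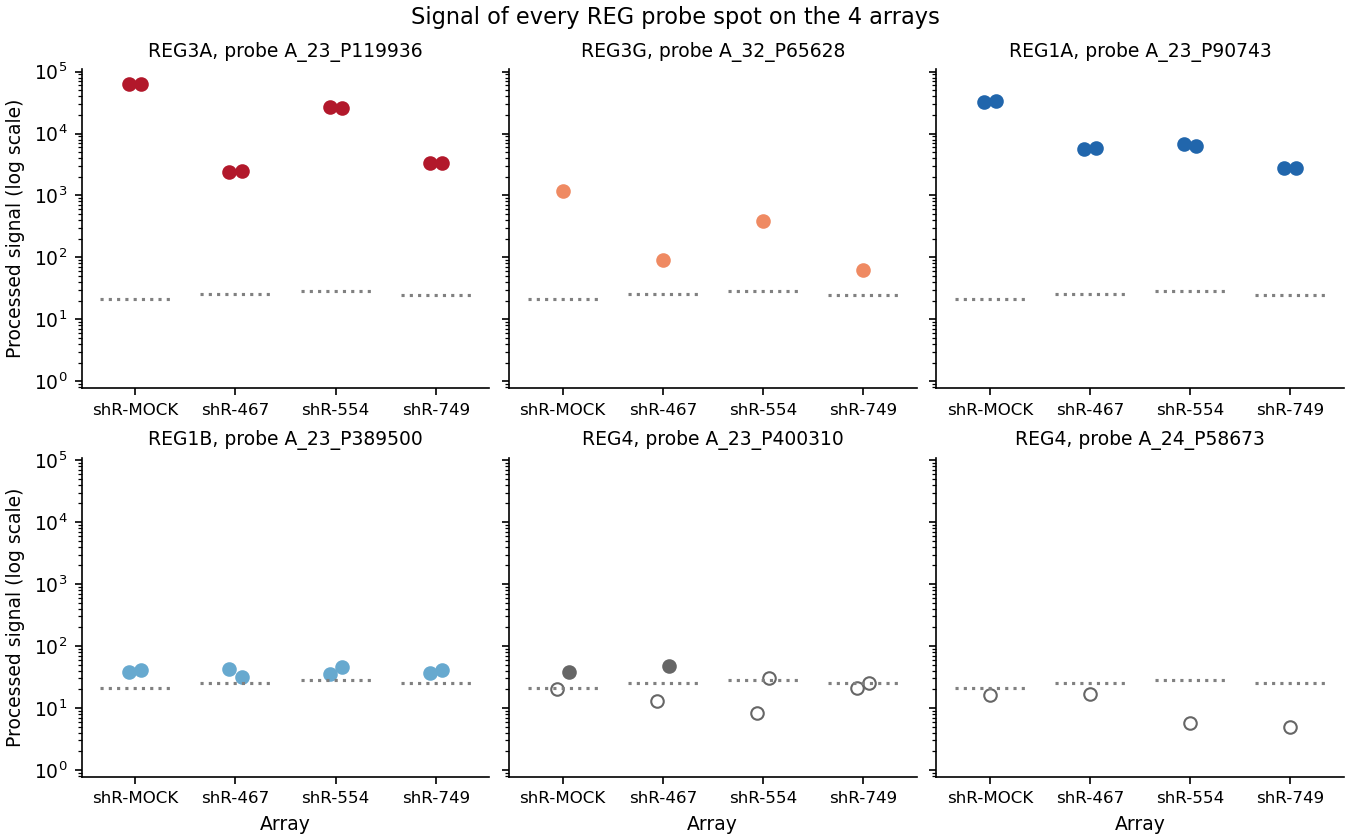
Processed signal (log scale) of each spot of the 6 REG probes on the 4 arrays; filled points were marked well above background, open points were not, and dotted lines give the lowest signal marked well above background on each array. REG3A, REG3G and REG1A were highest with shR-MOCK, REG1B stayed between 36.2 and 39.9 on average, and REG4 lay around the dotted lines.

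The cluster could thus be read only in part. REG3G, REG1A and REG3A, on both strands and up to 129 kb apart, were lower with every hairpin, whereas REG1B between them was dim throughout. REG1P gave no usable value: the spots of A_23_P108546 that were not marked as outliers read between 4.19 and 7.43, and A_33_P3352683 read 14.9 with shR-MOCK, 10.6 in shR-467 cells, 12.6 in shR-554 cells and 14.5 in shR-749 cells, none well above background. The adhesion gene CTNNA2 and the neuronal genes LRRTM1 and LRRTM4, the other listed genes around the cluster that have probes, did not pass the filter on dim signals either. Whether the fall extended beyond the REG genes could thus not be read at this locus.

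**Figure D2:**
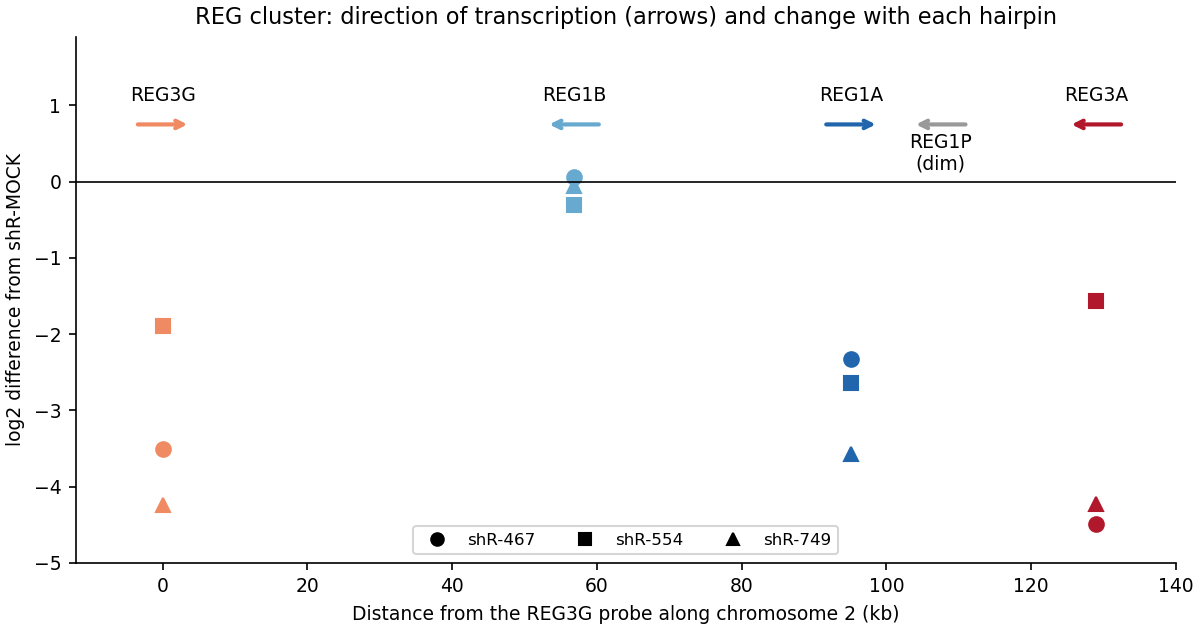
Log2 difference from shR-MOCK with each hairpin (y axis) against distance from the REG3G probe on chromosome 2 in kb (x axis), with arrows for the direction of transcription and not for gene length. REG3G at 0, REG1A at 95.1 and REG3A at 129 kb lay well below 0 with every hairpin. REG1B at 56.8 kb lay near 0 on signals close to the limit, and REG1P was too dim for a value.

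Counting genes at least 1.5-fold lower with every hairpin gave 3 of the 5 members, beside 1.23% of all 25148 genes (309 genes). At least 1.5-fold lower on average were also 3 of 5, beside 7.69% of all genes (1935). These counts describe the choice of the family and nothing is read from them. Ranked by the mean fall, REG3A was 13th, REG3G 16th and REG1A 22nd of 25148 genes. By single hairpin the ranks of REG3A were 5 in shR-467 cells, 823 in shR-554 cells and 12 in shR-749 cells, and those of REG3G were 11, 506 and 11. REG1A ranked 62 in shR-467 cells, 82 in shR-554 cells and 18 in shR-749 cells, so its place varied less. Limma was fitted over all genes, and the 1 mock array had to be taken to vary as the hairpin arrays do. It called 0 genes (0.0%) at the Benjamini-Hochberg threshold of 0.05, and 381 genes had an unadjusted p below 0.05.

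**Figure D3:**
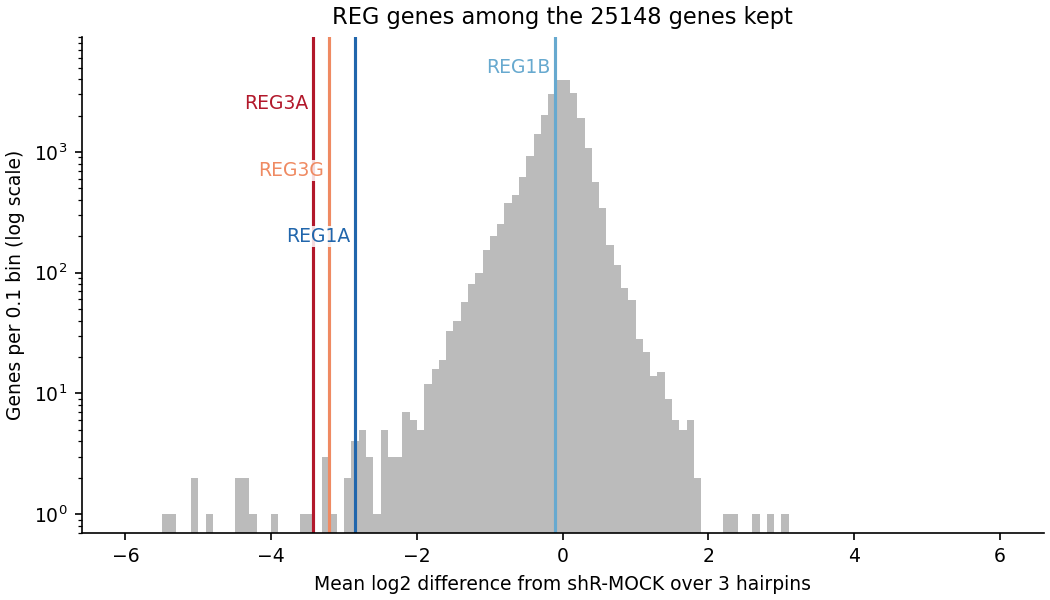
Number of genes (log scale, bins of 0.1) by mean log2 difference from shR-MOCK over 3 hairpins for the 25148 genes kept, with lines at the REG genes well above background on all arrays. REG3A (-3.43), REG3G (-3.21) and REG1A (-2.85) lay in the thin lower tail, and REG1B (-0.11) in the centre.

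The hairpins split the REG3 probes from that of REG1A. The REG3G probe was far dimmer than the REG3A probe, at 1160 against 63100 with shR-MOCK. Whether it takes up some REG3A transcript was not tested, so the REG3 probes may not be independent readings. REG3A was 7.57-fold higher with shR-554 than with shR-467 and 6.31-fold higher than with shR-749. REG3G was 3.05-fold higher with shR-554 than with shR-467 and 5.12-fold higher than with shR-749. REG1A, in contrast, was 1.24-fold lower with shR-554 than with shR-467, and 2.37-fold higher with shR-467 than with shR-749. With shR-554, which left the REG3 genes highest, UNC50 itself had its lowest value, -2.87 against -2.06 with shR-467 and -2.42 with shR-749 on the log2 scale. The order of the hairpins for the REG genes was thus not that of UNC50.

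The same values can be restated as differences between members, hairpin by hairpin, which adds no separate evidence. The log2 difference of REG3A minus that of REG3G was -0.99 in shR-467 cells, 0.32 in shR-554 cells and 0.02 in shR-749 cells. REG3A minus REG1A was -2.16 in shR-467 cells, 1.07 in shR-554 cells and -0.65 in shR-749 cells, which changes sign with shR-554. REG3G minus REG1A was -1.17, 0.75 and -0.67 in the same order and also changed sign. As a distance over the 3 hairpins, REG3A was 1.04 log2 units from REG3G, 2.50 from REG1A, and REG3G was 1.54 from REG1A. All of these share the mock array, and each hairpin is 1 array, so the differences between hairpins were not tested.

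**Figure D4:**
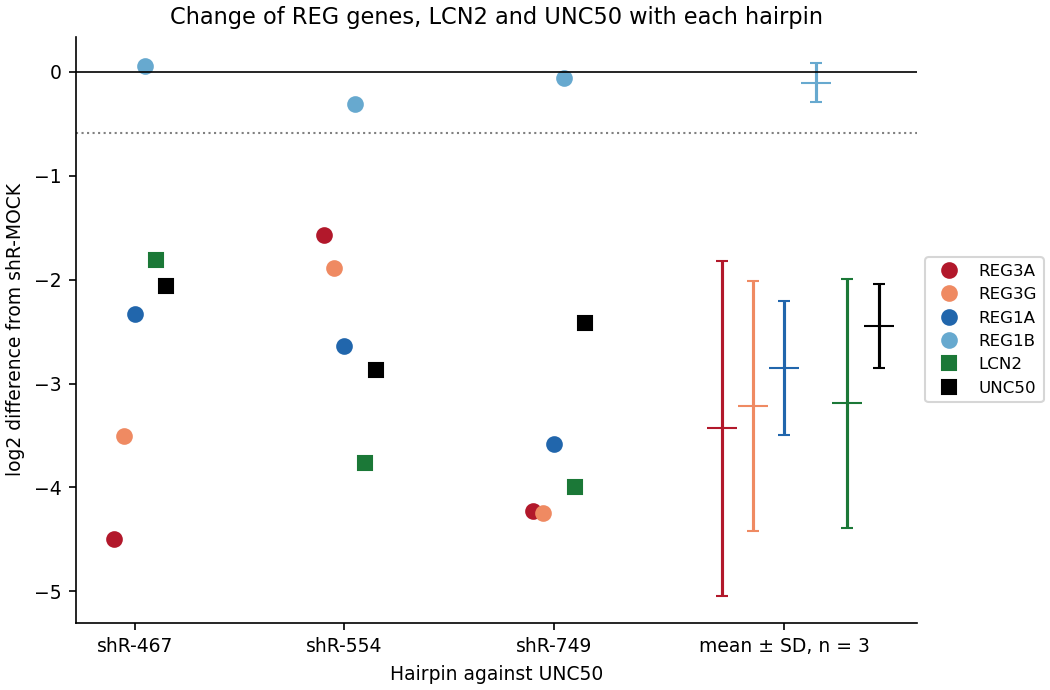
Log2 difference from shR-MOCK (y axis) with each hairpin for REG genes (circles) and for LCN2 and UNC50 (squares), with the mean and SD over 3 hairpins at the right; the dotted line marks 1.5-fold lower. REG3A and REG3G were least lowered with shR-554 (-1.57 and -1.89), where UNC50 was lowest (-2.87).

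The order of the hairpins seen for REG3A, highest with shR-554 and lowest with shR-467, was found in 27 of the 309 genes lower with every hairpin. That of REG3G, highest with shR-554 and lowest with shR-749, was found in 31, and that of REG1A in 43. The most frequent order, highest with shR-467 and lowest with shR-554, was found in 114. It was also the order of UNC50, and it fitted no REG gene that was lower with every hairpin. The 309 genes include dim ones: 165 were counted with low signals raised and 102 with probes well above background on all 4 arrays. The shR-554 array had the fewest spots well above background (67.6%), and whether this shaped the orders of dim genes was not tested.

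Among 21493 genes outside the family that passed the background mark on all 4 arrays, the closest to REG3A in the 3 log2 differences lay further from it than REG3G did. They were a chromosome 3 lincRNA probe, A_19_P00318492 (distance 2.64), LOC100131907 (2.65), RIBC1 (2.72), ZG16B (2.74) and C4orf7 (2.78). ZG16B, a secreted lectin-like protein of exocrine glands, read 2250 with shR-MOCK, 256 in shR-467 cells, 534 in shR-554 cells and 523 in shR-749 cells, or -2.48 ± 0.42 on the log2 scale (SD, n = 3). No gene of this set thus had the deep fall of REG3A with shR-467 and shR-749 together with its shallow fall with shR-554. The set leaves out genes that such a fall would take into the background, so dimmer genes with this pattern could not be found. REG3A was also 13th of 25148 genes by mean fall, and few genes lie near so extreme a value.

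REG1A had closer companions. These were C4orf7 (0.69), RIBC1 (0.77), ODAM (0.78), LOC100131907 (0.97) and GPA33 (1.12). C4orf7, also known as FDCSP, is a small secreted peptide, and ODAM is a secreted protein of junctional epithelium. C4orf7 read 421 with shR-MOCK, 85.3 in shR-467 cells, 104 in shR-554 cells and 52.9 in shR-749 cells. ODAM read 8650, 2390, 1350 and 649 in the same order, with log2 differences of -1.66, -2.99 and -3.75. GPA33, a cell surface antigen of intestinal epithelium, read 364.8 with shR-MOCK and 118.8, 46.2 and 31.3 with the 3 hairpins. These likenesses rest on 3 differences that share 1 mock array and were not tested.

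Gene groups that bear on REG biology are described by the number of kept genes at least 1.5-fold changed with every hairpin, beside 1.23% lower and 0.537% higher of all genes kept, and by their median of mean log2 differences, which was -0.03 over all genes. Values in parentheses after a gene are its mean log2 difference ± SD over the 3 hairpins. The receptors of the IL-6 family and of IL-22 and the JAK-STAT3 pathway, which induce REG3 genes in gut epithelium, had 18 of 18 genes kept, 0 lower and 0 higher, and a median of -0.04. STAT3, the transcription factor of this pathway, read 426.4 with shR-MOCK, 503.3 in shR-467 cells, 510.4 in shR-554 cells and 308.6 in shR-749 cells, and its mean difference of -0.03 ± 0.46 (SD, n = 3) was smaller than its spread. IL22RA1, the IL-22 receptor subunit, differed by -0.17 ± 0.27 and SOCS3, the feedback inhibitor, by -0.20 ± 0.38.

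Liver acute phase genes driven by STAT3 gave 1 lower and 2 higher of 15, with a median of 0.15. By at least 1.5-fold on average, 4 of the 15 were higher and 2 lower, beside 574 higher and 1935 lower of all 25148 genes. SAA1, an acute phase apolipoprotein whose probe may share signal with its near copy SAA2, read 297.3 with shR-MOCK and 154.0, 149.5 and 161.5 with the hairpins (-0.98 ± 0.29). The fibrinogen chains FGB (1.75 ± 1.02) and FGA (1.52 ± 0.86) were higher with every hairpin.

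Other secreted antimicrobial and mucosal defence proteins gave 3 lower and 0 higher of the 19 kept of 26 on the array, with a median of -0.32. Lower on average by at least 1.5-fold were 9 of the 19, some of them near the limit, beside 7.69% of all genes, and 0 were higher on average. LCN2, a lipocalin that binds bacterial siderophores, read 1990 with shR-MOCK, 494.9 in shR-467 cells, 182.0 in shR-554 cells and 125.5 in shR-749 cells (-3.19 ± 1.20). Its fall was as large on average as that of REG3G, but it was least with shR-467 and not with shR-554. PIGR, which carries immunoglobulins across epithelia, read 518.8, 198.6, 89.05 and 101.5 in the same order of arrays (-2.14 ± 0.86). S100A9, a subunit of calprotectin, read 67.8, 30.04, 30.02 and 23.8 (-1.33 ± 0.30) and was below the limit with shR-749. A pair of protease inhibitors in the list, picked out after their values were seen, were brightest with shR-554, where the REG3 genes were least lowered. SLPI read 902 with shR-MOCK, 716 in shR-467 cells, 3507 in shR-554 cells and 505 in shR-749 cells, and PI3 (elafin) read 805, 221.3, 1395 and 347.5. Neither was lower than the mock array with every hairpin, and both were above it with shR-554, where the REG3 genes were below it. Others of the list went the other way with shR-554. WFDC2 read 2050 with shR-MOCK, 1570 in shR-467 cells, 867.7 in shR-554 cells and 1939 in shR-749 cells. DEFB1 also had its lowest log2 difference with shR-554 (-1.44).

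Other genes with the lectin fold were read as a list of their own. Of 35 other genes with C-type lectin domains on the array, 21 were kept, 0 were lower and 0 higher with every hairpin, and the median was -0.10. Lower on average by at least 1.5-fold were 3 of the 21, FREM1 (-1.03 ± 0.71), CHODL (-0.91 ± 0.71) and CLEC10A (-0.63 ± 0.89), beside the 7.69% of all genes. CLEC10A was past 1.5-fold only with shR-554 (-1.65), where its signal of 21.6 was below the limit of 28.3. The subunits of the hepatocyte asialoglycoprotein receptor differed by 0.31 ± 0.18 (ASGR1) and 0.32 ± 0.13 (ASGR2). Of 8 genes for reported REG receptors and their partners, 0 were lower and 0 higher, with a median of 0.09. EXTL3, the exostosin-like protein described as a REG receptor, read 5933 with shR-MOCK, 5896 in shR-467 cells, 8560 in shR-554 cells and 6085 in shR-749 cells (0.14 ± 0.10).

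Targets of Wnt and beta-catenin in liver tumours, where REG1A and REG3A have been described with beta-catenin mutation, gave 1 lower and 0 higher of 15 kept and a median of -0.21. The lowered gene was CCND1, cyclin D1, which read 465.9 with shR-MOCK and 216.7, 180.1 and 187.0 with the hairpins (-1.31 ± 0.39).

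**Figure D5:**
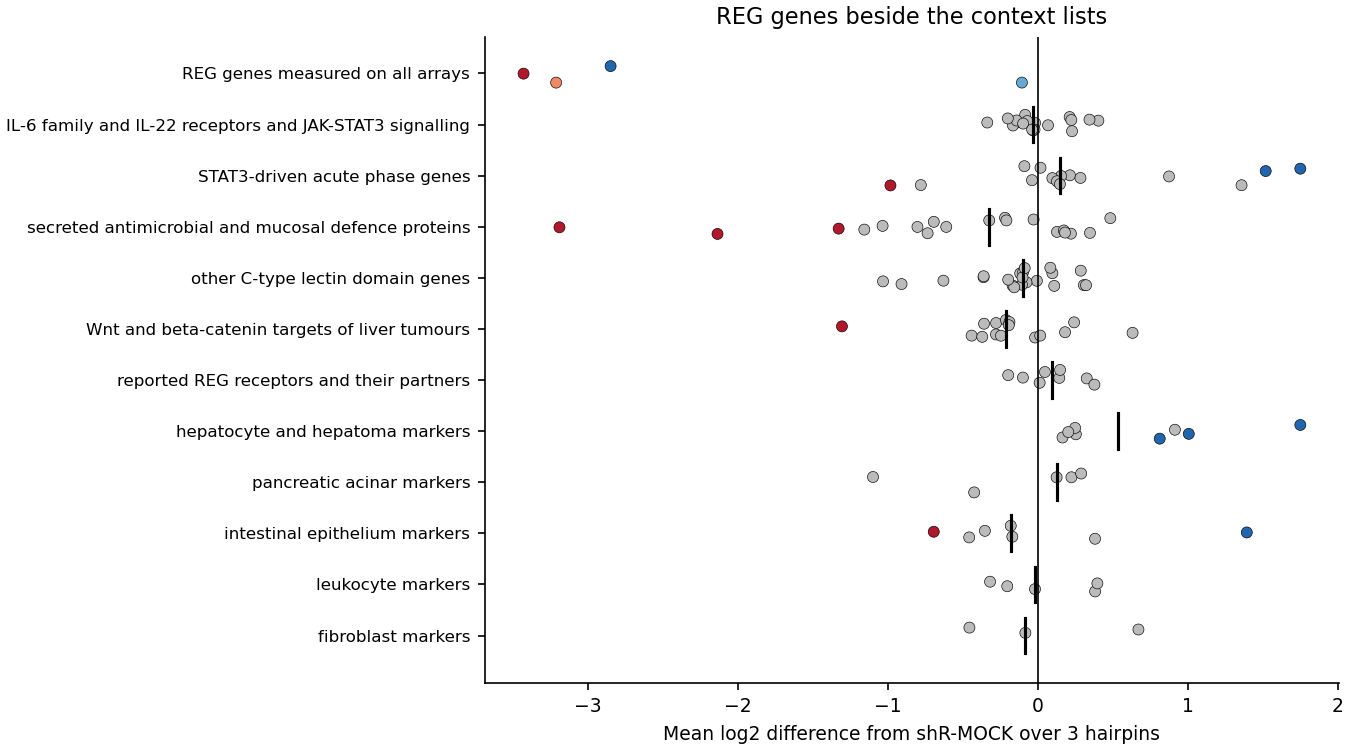
Mean log2 difference from shR-MOCK over 3 hairpins (x axis) for the REG genes measured on all arrays (top row, 1 colour for each gene) and for every kept gene of the context lists; in the lists red points were at least 1.5-fold lower with every hairpin, blue points higher, grey points neither, and black bars are medians. LCN2 (-3.19) was the list gene nearest to the lowered REG genes.

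Markers were read to check which cells the RNA came from, since REG genes are typical of pancreas and gut. All 8 hepatocyte and hepatoma markers passed the background mark on each array, and albumin read between 244300 and 344200. With every hairpin, 0 of these markers were lower and TTR, APOA1 and FGB were higher. On average, 4 of the 8 were at least 1.5-fold higher and 0 lower. Of 8 pancreatic acinar markers on the array, 5 were kept and 0 changed with every hairpin. CPA1, PNLIP and CTRB1 did not pass the filter, and the summed signal of the kept genes was 536.4 with shR-MOCK, 476.1 in shR-467 cells, 1344 in shR-554 cells and 449.9 in shR-749 cells. Of 8 intestinal markers, 7 were kept. CDH17, an intestinal cadherin, was lower (-0.69 ± 0.13) and SI, sucrase-isomaltase, higher (1.39 ± 0.68). The summed signal, before scaling, was between 30290 and 37200. Most of it came from VIL1, which read 31450 with shR-MOCK, 27100 in shR-467 cells, 31250 in shR-554 cells and 27540 in shR-749 cells. The sum therefore says little of the other intestinal markers. Of the leukocyte markers 5 were kept and of the fibroblast markers 3 of 5, with 0 lower and 0 higher in either list. The acinar sum was highest with shR-554, the hairpin with the highest REG3A and REG3G. Most of it came from the elastase CELA3A, which read 204 with shR-MOCK, 120 in shR-467 cells, 952 in shR-554 cells and 148 in shR-749 cells, and its part in the REG3 difference was not tested.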

How the data were processed

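Per the labels, total RNA of Hep3B cells was labelled with Cy3 and read on 1-colour Agilent arrays. The authors deposited the intensity output of Agilent Feature Extraction 10.7.1.1 for each array, whose processed signal has the background subtracted, and a table of processed log2 values, whose normalization is not given in the sources used here and which served as an alternative. The log2 of the processed signal was scaled by subtracting, for each array, the 75th percentile over all spots that are not controls. Spots marked as outliers were left out and spots of 1 probe averaged. A probe was well above background on an array where at least 50% of its spots were, and genes were kept when this held for shR-MOCK or for each of the 3 hairpins. A gene was read from its kept probe with the highest mean. The threshold of 1.5-fold is that of the study's methods. Limma 3.58.1 (lmFit, eBayes with trend, Benjamini-Hochberg; 2 residual degrees of freedom) was run in R 4.3.3, tested on simulated data, and no p-value is given for a member. With 1 array for each hairpin, any p-value measures only the spread between these samples.

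Named genes were the members, UNC50, REG1P, LCN2, up to 4 genes of each list that changed with every hairpin, and the 5 genes closest to REG3A and to REG1A by Euclidean distance. STAT3, IL22RA1, SOCS3, EXTL3, ASGR1, ASGR2, FREM1, CHODL, CLEC10A, SLPI, PI3, WFDC2, DEFB1, VIL1, albumin, SAA2, the acinar markers and the genes around the cluster were outside this rule and were picked out with their values known. The members and lists were chosen with earlier results of these data known. Probe positions are those of the array on hg19. Promoters of all 5 members were matched by symbol in RefSeq on GRCh38.p14. Promoters were aligned globally with Biopython (match 1, mismatch -1, gap opening -3, gap extension -1). Python 3.11.15, numpy 2.4.6 and pandas 2.3.3 were used.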

Additional observations from a re-analysis of the deposited data

How the results depend on the processing

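Of 91 values recomputed under 15 alternative settings, 70 stayed within the spread or within 1.5 times the count, 21 moved and 0 changed the sign of a value past the threshold. Some of these outcomes were fixed beforehand. No spot of REG3A, REG3G, REG1A or REG1B was marked as an outlier or below the limit. Keeping outlier spots and raising low signals therefore could not move these genes. Among the members, only those chosen for their large falls were past the threshold. Across other scalings, background correction, the authors' processed values and raised low signals, REG3A ranged from -3.45 to -3.39, REG3G from -3.24 to -2.60, REG1A from -2.86 to -2.81 and REG1B from -0.11 to 0.02. Leaving out each hairpin gave -4.36 to -2.90 for REG3A, -3.87 to -2.70 for REG3G, -3.11 to -2.49 for REG1A and -0.19 to -0.0042 for REG1B.

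The counts over all genes moved more. Genes lower with every hairpin numbered 80 after normexp with quantile normalization, 165 with low signals raised, 102 with probes well above background on all 4 arrays, 706 with no filter and 99 at 2-fold, and 589 to 1347 without 1 hairpin. Genes lower on average numbered 274, 919, 629, 3368 and 574 under the same settings, and 1492 to 2920 without 1 hairpin. Genes of the lists other than cell type markers that were lower with every hairpin (5) were 3 after normexp and 5 to 11 without 1 hairpin, and those higher (2) were 2 to 4. Limma called 4 genes after normexp, none of them a member, and 0 to 2 without 1 hairpin (2 without shR-554 and 1 without shR-749). Those 3 calls were members of the family, which was chosen on these differences, so nothing is read from them. The methods' t-test gave 646 genes at an unadjusted 0.05 and 0 after Benjamini-Hochberg adjustment. The cause of these moves was not tested. No paired analysis was possible because the mock group has 1 array and shares fewer than 2 replicate numbers with the knockdown. A block for slide or scan could not be fitted, since all arrays share both. Precision is limited by 1 mock array and, for REG1B and REG4, by signals at the limit of detection.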
